A study of Mastomys natalensis with 3 samples.

Results

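The genes described here are 10 endothelial receptors, adhesion molecules and vasoactive factors: Flt1, Kdr, Selp, Pecam1, Vwf, Edn1, Ednrb, Nos3, Icam1 and Vcam1. They were chosen by name, with earlier results of these data known. Every probe set whose platform annotation carries 1 of these symbols was taken. This gave 17 of the 8740 non-control probe sets and covered 9 of the 10 genes. Nos3 had 6 probe sets, Icam1, Vcam1 and Vwf had 2 each, and the remaining genes had 1 each. No probe set carried the symbol Ednrb in the annotation used, so this endothelin receptor was not analysed here.

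The RNA came from Mastomys natalensis, an African rodent that is prone to carcinoids of the enterochromaffin-like (ECL) cell, the histamine-storing endocrine cell of the acid-secreting stomach. It was hybridised to an Affymetrix rat array, and the study compared 3 states with 1 array each. These were cells of animals that had formed a gastric ECL cell carcinoid on their own, cells of animals given loxtidine for 16 weeks, and cells of animals given loxtidine for 8 weeks. Loxtidine blocks the histamine receptor of the acid-secreting cell, and the gastrin that then accumulates drives ECL cells to multiply. Per the labels all 3 samples were enriched for ECL cells, but the source field named gastric mucosa for the carcinoid and 16-week samples and ECL cells for the 8-week sample alone. The labels give no strain, sex, age or number of animals and no untreated group. The lot differed between all arrays, and its part cannot be told apart from that of the group.

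Endothelial cells line blood vessels. They sense vascular endothelial growth factor (VEGF) through Flt1 and Kdr, set vessel tone through nitric oxide and endothelin, and hold passing leukocytes first with selectins and then with Icam1 and Vcam1. The gastric mucosa carries a dense capillary bed, and an ECL cell preparation can hold vessel fragments besides the cells it was enriched for. In bulk RNA, fewer endothelial cells and less RNA per cell cannot be told apart.

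The endothelial probe sets were dim on every array. Their deposited intensities, in arbitrary linear units, ran from 1.7 to 27.8 in the carcinoid (median 8.4), from 0.6 to 57.0 at 16 weeks (median 9.6) and from 0.8 to 45.4 at 8 weeks (median 18.6). The medians of all non-control probe sets were 13.9, 13.1 and 10.2 in the same order. The endothelial median thus lay below that of all probe sets on the carcinoid and 16-week arrays and above it on the 8-week array.

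The arrays also carried 38 control probe sets taken by name to have no target in this RNA. The brightest of them read 55.3 in the carcinoid, 31.3 at 16 weeks and 34.6 at 8 weeks. Of the 51 endothelial values (17 probe sets on 3 arrays), 2 exceeded the brightest such control of their own array. These were 1 probe set of Nos3 at 16 weeks (57.0) and Selp at 8 weeks (45.4). Every other endothelial value was at or below the brightest such control of its own array. A rat probe can also bind Mastomys RNA weakly where the sequences differ, so a dim value does not show that a transcript was missing.

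For comparisons the 3 arrays were quantile normalized, and a floor was set at 12.4, the median of all their non-control values together. A difference is given as a fold where both arrays reached the floor and as a bound ("at least") where 1 did, with the dimmer value raised to the floor. Of the 17 endothelial probe sets, 1 reached the floor on all 3 arrays, 8 on 2 arrays, 3 on 1 array and 5 on none. Of the 12 that reached it anywhere, 5 did so in the carcinoid, 7 at 16 weeks and 10 at 8 weeks. Of the 38 controls without a target, 9, 9 and 8 reached it on the carcinoid, 16-week and 8-week arrays. With 1 array per group there was no replicate of any difference, and no test between groups was run.

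**Figure D1:**
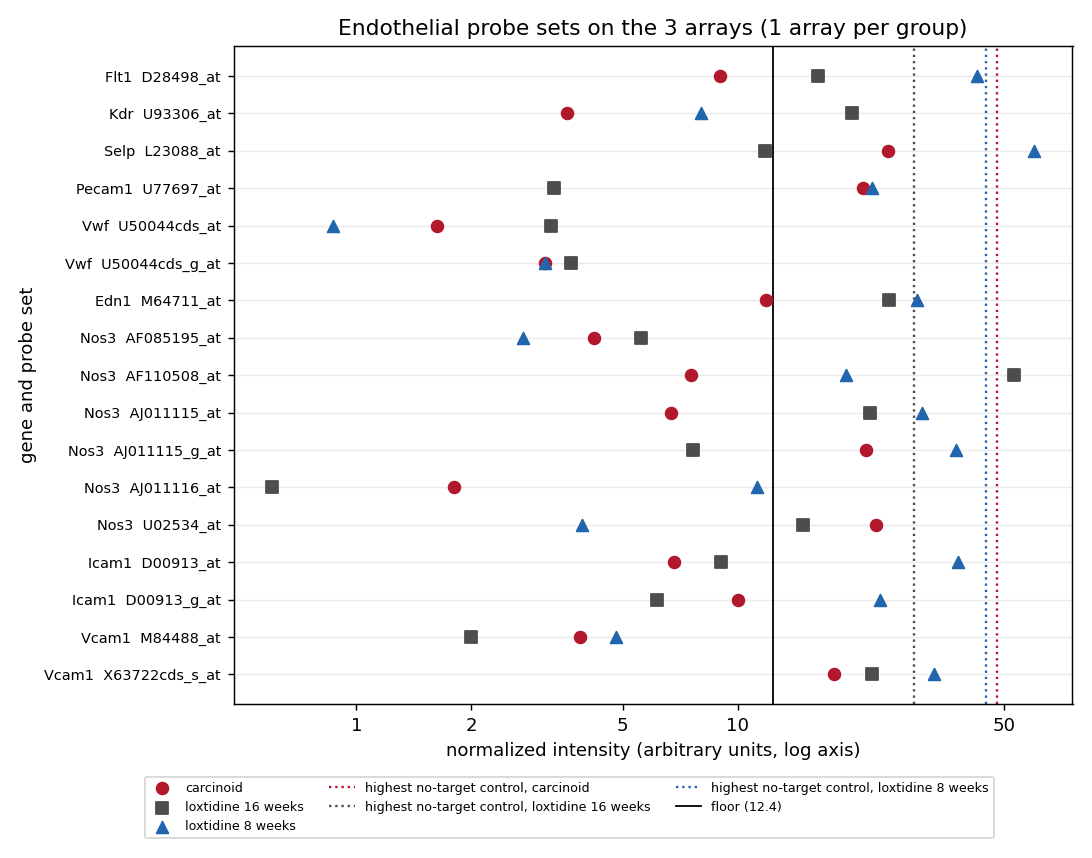
Normalized intensity (log axis, arbitrary units) of the 17 endothelial probe sets on the carcinoid, 16-week and 8-week arrays, 1 point per array. The solid line is the floor of 12.4 and the dotted lines are the brightest control without a target on each array (47.97, 29.1 and 44.8 after normalization); 2 points lie beyond the line of their own array.

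Flt1, a VEGF receptor that binds the ligand tightly and signals weakly, read 10.1 on the carcinoid array, 17.2 at 16 weeks and 33.1 at 8 weeks. Its values were ordered with the 8-week array highest and the carcinoid array lowest. After normalization Flt1 was at least 3.43-fold lower in the carcinoid than at 8 weeks and 2.61-fold lower at 16 weeks than at 8 weeks. Carcinoid and 16 weeks lay closer, with a bound of at least 1.32-fold lower in the carcinoid. In the intensities as deposited, the 16-week difference was -0.94 on the log2 scale and no longer reached 2-fold.

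Kdr, the receptor that carries most of the mitogenic VEGF signal, had another order. It read 3.8 on the carcinoid array, 21.2 at 16 weeks and 6.6 at 8 weeks, and it reached the floor at 16 weeks alone. The bounds were at least 1.61-fold lower in the carcinoid than at 16 weeks and at least 1.61-fold higher at 16 weeks than at 8 weeks. The VEGF receptors therefore did not share an order across the arrays, and no fold could be given for Kdr between carcinoid and 8 weeks.

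Selp encodes P-selectin, which endothelial cells and platelets store in granules and bring to the surface to catch rolling leukocytes. Its single probe set read 27.8 on the carcinoid array, 12.5 at 16 weeks and 45.4 at 8 weeks. The 8-week value stood above every control without a target on that array, and the 16-week value lay just under the floor after normalization. Set against 8 weeks, Selp was 2.42-fold lower in the carcinoid and lower by at least 4.84-fold at 16 weeks. It was at least 2.01-fold higher in the carcinoid than at 16 weeks. As deposited, the carcinoid against 8-week difference was -0.71 on the log2 scale, short of 2-fold.

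Pecam1, a junction protein of endothelial cells that leukocytes and platelets also carry, shared the low 16-week value. It read 23.7 on the carcinoid array, 3.6 at 16 weeks and 18.6 at 8 weeks. Carcinoid and 8 weeks were alike after normalization (1.06-fold lower in the carcinoid). The 16-week array gave bounds of at least 1.73-fold higher in the carcinoid than at 16 weeks and lower by at least 1.82-fold at 16 weeks than at 8 weeks, neither of which reached 2-fold.

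Vwf, the clotting glycoprotein that marks endothelial cells and platelets, was below the floor on all 3 arrays. Its probe sets, both made from the same sequence, read 1.7 and 3.3 on the carcinoid array, 3.5 and 4.0 at 16 weeks, and 0.8 and 2.7 at 8 weeks. No difference was computed for this gene. This defining endothelial marker thus stayed under the floor throughout, which does not show that its transcript was missing.

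Icam1, which binds leukocyte integrins and is induced in endothelial cells by inflammatory signals, reached the floor at 8 weeks alone. The probe set D00913_at read 7.5 on the carcinoid array, 9.6 at 16 weeks and 29.7 at 8 weeks. A second probe set from the same sequence, D00913_g_at, read 11.2, 6.6 and 19.3. Both were highest at 8 weeks. The first was at least 3.05-fold lower in the carcinoid and at least 3.05-fold lower at 16 weeks, each against 8 weeks, and the second at least 1.91-fold lower in both. The equal bounds arise because both dimmer arrays were raised to the same floor.

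Vcam1, the partner of a leukocyte integrin of another family, differed less. The probe set X63722cds_s_at was the only endothelial one to reach the floor on every array, with 20.0 on the carcinoid array, 23.9 at 16 weeks and 25.9 at 8 weeks. It was 1.83-fold lower in the carcinoid than at 8 weeks, 1.26-fold lower in the carcinoid than at 16 weeks and 1.45-fold lower at 16 weeks than at 8 weeks. The other probe set, M84488_at, was below the floor throughout (4.1, 2.2 and 4.0). No Vcam1 difference reached 2-fold.

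Edn1, the precursor of the vessel-constricting peptide endothelin-1, read 13.3 on the carcinoid array, 26.7 at 16 weeks and 23.8 at 8 weeks. The loxtidine arrays were close to each other (1.19-fold lower at 16 weeks than at 8 weeks after normalization), and the carcinoid lay below both. The bounds were at least 2.39-fold lower in the carcinoid than at 8 weeks and at least 2.01-fold lower than at 16 weeks. As deposited, the difference from 8 weeks was -0.84 on the log2 scale and thus under 2-fold.

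Nos3, the endothelial nitric oxide synthase, showed how far probe sets of 1 gene can disagree on these arrays. The probe set AF110508_at read 8.4 on the carcinoid array, 57.0 at 16 weeks and 16.0 at 8 weeks, with the 16-week array highest. It was 2.76-fold higher at 16 weeks than at 8 weeks and at least 4.29-fold lower in the carcinoid than at 16 weeks. By contrast, AJ011115_g_at read 24.1, 8.1 and 29.5, with the 16-week array lowest, and was lower by at least 3.02-fold at 16 weeks than at 8 weeks. A probe set from the same sequence, AJ011115_at, read 7.4, 23.6 and 24.4, with the carcinoid array lowest, and was at least 2.45-fold lower in the carcinoid than at 8 weeks.

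U02534_at had yet another order, with 25.8 on the carcinoid array, 15.7 at 16 weeks and 3.3 at 8 weeks, and was at least 1.86-fold higher in the carcinoid than at 8 weeks. The last pair, AF085195_at and AJ011116_at, stayed below the floor on all arrays, between 0.6 and 9.2. Over the 6 probe sets, the highest deposited value was that of the carcinoid for 1, of 16 weeks for 2 and of 8 weeks for 3. Each array held the lowest value of 2. The Nos3 log2 differences ran from -1.60 to 1.46 for 16 against 8 weeks, so no direction is given for the gene.

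**Figure D2:**
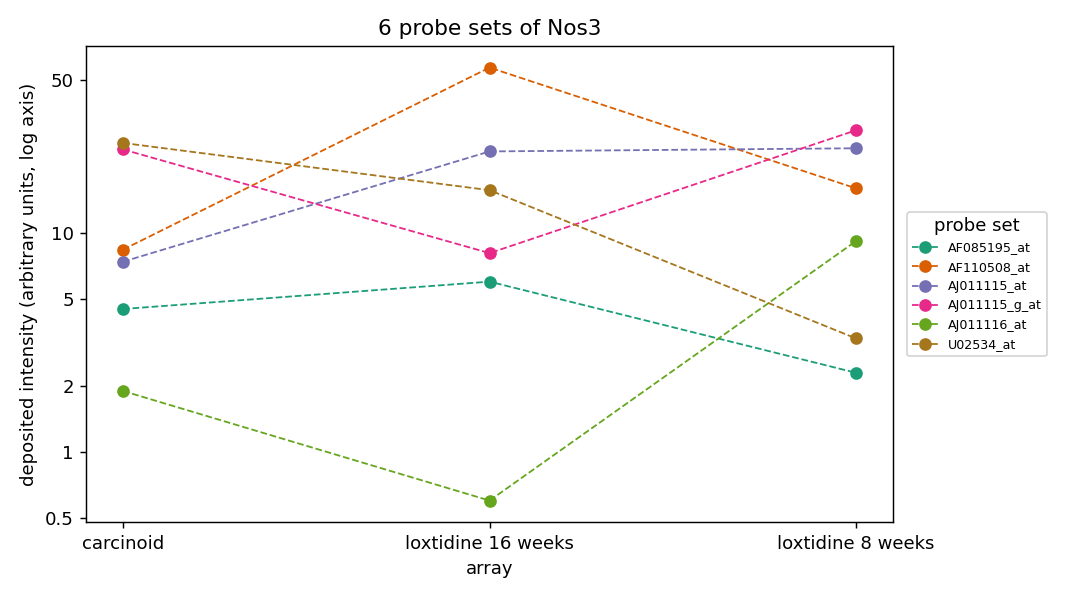
Deposited intensity (log axis, arbitrary units) of the 6 Nos3 probe sets on the carcinoid, 16-week and 8-week arrays, 1 value per array; the dashed lines join the values of a probe set. The lines cross, and the highest array differs between probe sets.

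Against 8 weeks of loxtidine, the carcinoid showed mostly lower endothelial values. At least 2-fold lower were 5 of the 11 endothelial probe sets compared (Flt1, Selp, Edn1, 1 of Nos3 and 1 of Icam1), against 14.0% of the 5620 probe sets compared over the whole array. None was at least 2-fold higher, against 14.6% over the whole array. Their median log2 difference was -0.93, and that of all probe sets -0.03. Most of the 11 (7) reached the floor on 1 of the pair of arrays, and such a probe set had to differ in the direction of that array. Without the floor or any filter, 13 of all 17 endothelial probe sets were lower in the carcinoid, 3 were higher and 1 was equal, with 50.7% lower over the whole array. In the values as deposited, 11 of 17 were lower, against 35.6% of all probe sets.

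For 16 weeks against 8 weeks of loxtidine, 4 of the 12 endothelial probe sets compared were at least 2-fold lower (Flt1, Selp, 1 of Nos3 and 1 of Icam1), against 13.0% over the whole array. The count higher was 1 (Nos3, AF110508_at), against 13.9%. The median log2 difference was -0.70, with -0.005 for all probe sets. Without any filter, 11 of the 17 were lower at 16 weeks, against 49.9% of all probe sets, but 24 of the 38 controls without a target were lower as well.

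For the carcinoid against 16 weeks, 2 of the 10 endothelial probe sets compared were at least 2-fold lower (Edn1 and 1 of Nos3), against 9.67% over the whole array, and 1 was higher (Selp), against 9.38%. The median was -0.36, with 0.01 for all probe sets. Without any filter, 10 of 17 were lower in the carcinoid, against 50.1% of all probe sets. These comparisons share arrays: the 8-week array enters both of the first and the carcinoid array enters the first and the last.

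As the sole measure of error, probe sets of 1 gene were set against each other, over all genes with at least a pair measured on both arrays. This spread was 0.82 on the log2 scale for carcinoid against 8 weeks, from 395 genes. It was 0.62 for carcinoid against 16 weeks, from 457 genes, and 0.79 for 16 against 8 weeks, from 410 genes. Over 2 times this spread lay 1 of 11 endothelial probe sets for carcinoid against 8 weeks (Flt1), against 8.13% over the whole array. For carcinoid against 16 weeks it was 1 of 10 (Nos3, AF110508_at), against 10.7%. For 16 against 8 weeks it was 3 of 12 (Selp, Nos3 AJ011115_g_at and Icam1 D00913_at), against 8.11%. The first 2 of these shares are close to the background. The spread holds no variation between animals. It came from probe sets measured on both arrays, whereas every endothelial probe set over 2 times the spread was a bound with 1 array below the floor.

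The number of calls moved with the treatment of dim values. With the floor at 4.2 every probe set called at least 2-fold apart kept its call and direction. This could not have come out otherwise, since a lower floor leaves measured folds unchanged and can only lengthen bounds. With log2 of the value plus the floor, which shrinks every difference between dim values, Flt1 at 16 against 8 weeks and both Selp and Edn1 in the carcinoid, against either loxtidine array, were under 2-fold. With the floor at 30.0, only Selp at 8 weeks was bright enough to allow a 2-fold bound, and it was lower in the carcinoid and at 16 weeks, each against 8 weeks (a log2 bound of -1.002 in both).

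The controls without a target were counted in the same way. Of 13 compared between carcinoid and 8 weeks, 3 were at least 2-fold lower and 1 higher; of 14 compared between 16 and 8 weeks, 3 were lower and 2 higher; of 15 compared between carcinoid and 16 weeks, 1 was lower and 1 higher. Differences of 2-fold therefore also occurred among probe sets with no expected target at like intensities.

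**Figure D3:**
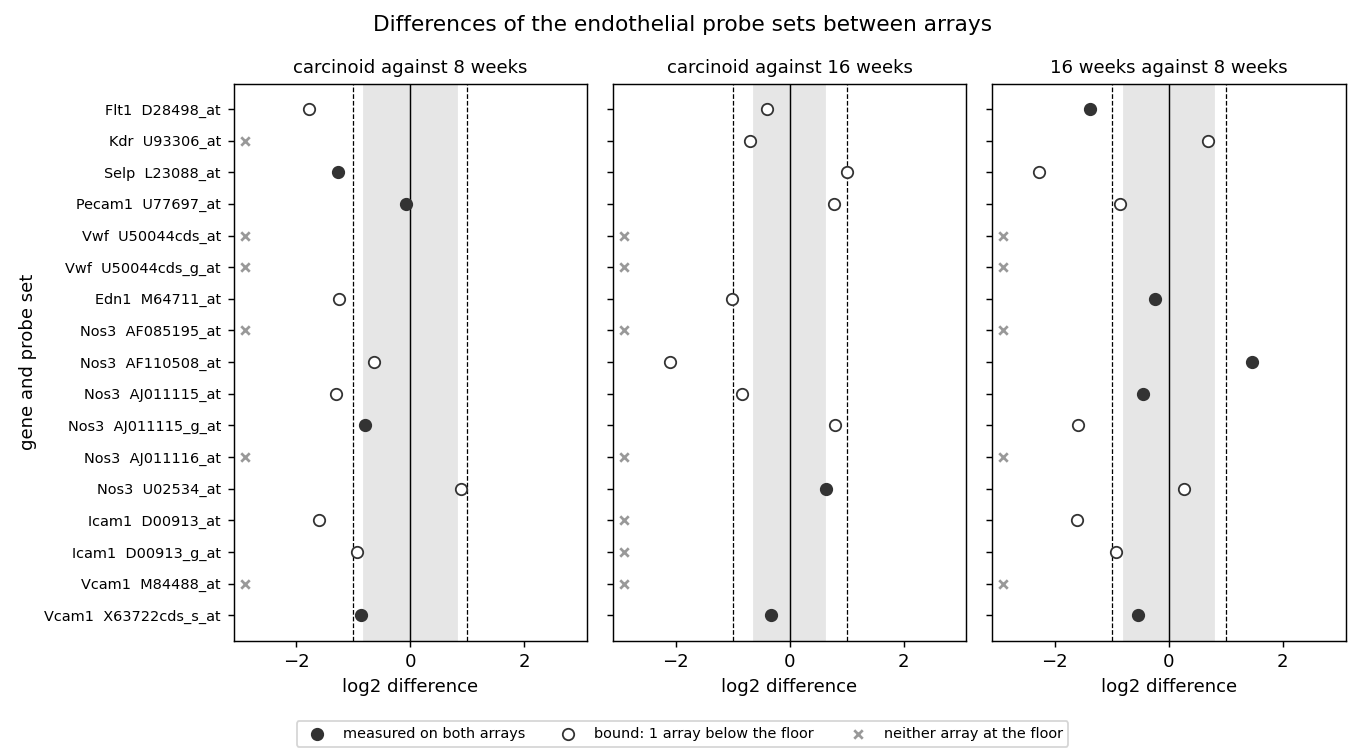
Log2 differences of the endothelial probe sets in the 3 comparisons; filled points were measured on both arrays, open points are bounds, crosses mark probe sets below the floor on both, the grey band is the spread between probe sets of a gene and the dashed lines are 2-fold. Most points of both comparisons with 8 weeks lie left of 0, and 5 and 4 of them lie beyond 2-fold.

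Other endothelial genes gave a mixed picture. Of 23 further endothelial markers, 11 had a probe set, and 9 reached the floor on at least 1 array (3 on the carcinoid, 5 on the 16-week and 8 on the 8-week array). Thbd, the endothelial thrombin receptor thrombomodulin, read 117 on the carcinoid array, 127.5 at 16 weeks and 95.6 at 8 weeks. It was the only one of these markers brighter than every control without a target on each array, and it differed by at most 1.43-fold in any comparison. Ace, the angiotensin-converting enzyme of the vessel surface, read 12.1, 29.8 and 2.7 in that order. Calcrl, a receptor for adrenomedullin and its kin, read 24.2, 18.1 and 17.1.

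Of these markers, 3 of the 8 compared were at least 2-fold lower and 0 higher in the carcinoid than at 8 weeks (median -0.42). Over the whole array 14.0% were lower and 14.6% higher. The 3 lower markers were Egfl7 (at least 2.04-fold), Mmrn1 (2.0-fold) and Lyve1 (at least 2.12-fold), a marker of lymphatic vessels. The same 3 were lower at 16 weeks than at 8 weeks, with Ace higher (at least 2.24-fold), of 9 compared (median -0.27). The whole-array shares were 13.0% lower and 13.9% higher. Egfl7 and Lyve1 reached the floor at 8 weeks alone, so they had to be lower on the other arrays. Ace reached it at 16 weeks alone, so it had to be higher there. Between carcinoid and 16 weeks, 1 of 5 was lower (Ace) and 0 higher (median -0.28), against 9.67% and 9.38% over the whole array. These whole-array shares also stand beside the counts of the lists that follow. Summed over the 11 markers, deposited values were 202.7 for the carcinoid, 249.5 for 16 weeks and 221.3 for 8 weeks, and normalized values were 174.5, 234.4 and 292.5 in that order. Without Thbd the sums were 85.7, 122.0 and 125.7 as deposited and 77.4, 114.5 and 153.8 after normalization. The carcinoid sum was thus the lowest on both scales, while the array with the highest sum depended on scaling and on Thbd.

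Of the wider VEGF and angiopoietin system, 10 of 16 genes had a probe set and 8 reached the floor on some array. Vegfa, the main ligand of Flt1 and Kdr, read 72.3 on the carcinoid array, 94.3 at 16 weeks and 39.5 at 8 weeks, above every control without a target on each array. After normalization it differed by at most 1.71-fold. Vegfb, a ligand of Flt1, read 5.2, 30.8 and 37.6, and was at least 3.92-fold lower in the carcinoid than at 8 weeks and at least 2.31-fold lower than at 16 weeks. Pgf, another Flt1 ligand, read 28.5, 16.6 and 23.6 and stayed within 2-fold.

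In that system 1 of 8 genes compared was lower (Vegfb) and 0 higher in the carcinoid than at 8 weeks (median 0.33). For carcinoid against 16 weeks 1 of 8 was lower (Vegfb) and 1 higher (median 0.47). The higher gene was Vhl, which targets hypoxia-inducible factors for destruction, at 36.8 against 3.8 (at least 2.62-fold). For 16 against 8 weeks, 0 of 5 reached 2-fold (median -0.66). Arnt, the partner of hypoxia-inducible factors, was also among the 5 brightest and read 22.8, 11.0 and 5.8 in the carcinoid, at 16 weeks and at 8 weeks.

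The rest of the endothelin system was ordered unlike Edn1. All 3 genes that reached the floor, of 4 on the array, did so in the carcinoid and at 16 weeks and none did at 8 weeks. Against 8 weeks these 3 therefore had to be higher. Ece1, the enzyme that cuts out active endothelin, read 48.1 on the carcinoid array, 23.9 at 16 weeks and 9.0 at 8 weeks, and was at least 3.38-fold higher in the carcinoid than at 8 weeks. Edn3, a ligand of Ednrb, read 25.9, 67.2 and 9.6, on a probe set of the kind shared within a gene family. It was at least 5.08-fold higher at 16 weeks than at 8 weeks and 2.72-fold lower in the carcinoid than at 16 weeks. Mme, a peptidase that degrades endothelins, read 24.1, 15.5 and 4.9 and was at least 1.75-fold higher in the carcinoid than at 8 weeks. Edn2 was below the floor (3.8, 4.7 and 3.6). Of the 3 compared, 1 was at least 2-fold higher and 0 lower in the carcinoid than at 8 weeks (median 0.90), 1 higher and 0 lower at 16 weeks than at 8 weeks (median 0.86), and 0 higher and 1 lower in the carcinoid than at 16 weeks (median 0.56).

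The nitric oxide pathway had 13 of 19 genes on the array. Nos2, the inducible synthase, read 12.4 on the carcinoid array, 37.8 at 16 weeks and 16.3 at 8 weeks, and was at least 2.85-fold lower in the carcinoid than at 16 weeks. Ddah1, which degrades an inhibitor of the synthases, read 19.1, 16.7 and 30.9. It was 2.32-fold lower in the carcinoid and 2.5-fold lower at 16 weeks, each against 8 weeks. Hsp90ab1, a chaperone, read 792.3, 600.5 and 434.6 and differed by at most 1.05-fold after normalization. Gch1, which makes the synthases' cofactor, read 27.8, 36.0 and 18.4 and Gucy1b2, a guanylate cyclase subunit, 7.1, 14.2 and 13.7, both within 2-fold. Each comparison had 1 gene lower and 0 higher, of 10 (carcinoid against 8 weeks, median -0.18), 9 (carcinoid against 16 weeks, -0.07) and 9 (16 against 8 weeks, -0.19).

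Among selectins, integrins and leukocyte ligands, 9 of 15 genes had a probe set. Sele, the endothelial selectin induced by inflammation, was below the floor (3.6, 4.2 and 1.9). Glg1, a Golgi protein that binds it, read 99.7 on the carcinoid array, 41.8 at 16 weeks and 17.8 at 8 weeks, and was 3.89-fold higher in the carcinoid than at 8 weeks and 2.14-fold higher than at 16 weeks. Madcam1, the mucosal vessel receptor for lymphocytes, read 41.1, 43.4 and 23.5 and stayed within 2-fold. The integrin subunit Itgb7 read 37.1, 33.5 and 4.5, at least 2.64-fold higher in the carcinoid than at 8 weeks. Itgb1, another integrin subunit, read 24.3, 8.2 and 23.9, and the hyaluronan receptor Cd44 13.7, 5.4 and 19.5.

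In this group 2 of 8 compared were higher and 0 lower in the carcinoid than at 8 weeks (median -0.18). For carcinoid against 16 weeks, 1 of 4 was higher and 0 lower (median 0.45). For 16 against 8 weeks, 1 of 8 was higher (Itgb7) and 1 lower (Itgb1, at least 2.4-fold; median -0.18).

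Selp, Icam1 and Vcam1 are known targets of the inflammatory transcription factor NF-kappaB, and a list of its other genes was counted beside them. Of 8 compared, 5 were at least 2-fold lower in the carcinoid than at 8 weeks (Nfkbia, Ccl2, Cxcl2, Csf1 and Ptgs2) and 0 higher (median -1.43). Over the whole array 14.0% were lower and 14.6% higher. The rest of the 8 read higher in the carcinoid, short of a 2-fold call. They were Irf1 (1.55-fold), Il1b (at least 1.65-fold) and Il6 (at least 1.7-fold), and the last pair reached the floor in the carcinoid alone. At 16 weeks 3 of 6 were lower than at 8 weeks (Nfkbia, Cxcl2 and Ptgs2) and 0 higher (median -1.26). Over the whole array 13.0% were lower and 13.9% higher. Cxcl2 and Ptgs2 reached the floor at 8 weeks alone, so both had to be lower in each comparison with 8 weeks. Between carcinoid and 16 weeks 1 of 6 was higher (Nfkbia) and 1 lower (Csf1; median 0.53). The chemokine Cxcl2 read 6.2 on the carcinoid array, 2.6 at 16 weeks and 43.8 at 8 weeks, at least 4.68-fold lower on each of the others than at 8 weeks. The macrophage growth factor Csf1 read 18.3, 41.7 and 46.9, and was 3.84-fold lower in the carcinoid than at 8 weeks. The chemokine Ccl2 read 24.3, 29.4 and 39.8, and Irf1, an interferon-response factor, 35.9, 26.9 and 17.0. Nfkbia, the inhibitor of the pathway, read 41.6, 13.9 and 92.2. It was 3.65-fold lower in the carcinoid and 10.2-fold lower at 16 weeks, each against 8 weeks, and 2.78-fold higher in the carcinoid than at 16 weeks.

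Leukocyte markers were counted in the same comparisons. On the carcinoid, 16-week and 8-week arrays 0, 2 and 1 of the 13 on the array were brighter than every control without a target. Of 11 such markers compared, 6 were at least 2-fold lower in the carcinoid than at 8 weeks and 0 higher (median -1.01), against 14.0% and 14.6% over the whole array. Of these, Cd3g and Cd14 were measured on both arrays. Cd3d, Cd4, Cd8b and Cd74 reached the floor at 8 weeks and not in the carcinoid, so they had to be lower. Of 12 compared, 4 were lower at 16 weeks than at 8 weeks and 1 higher (Cd8a, at least 3.32-fold; median -0.61). Between carcinoid and 16 weeks 2 of 9 were lower and 0 higher (median -0.48). Their summed deposited values over 13 genes were 134.3 for the carcinoid, 236.5 for 16 weeks and 266.8 for 8 weeks. The monocyte receptor Cd14 read 31.5, 61.1 and 51.4 in that order. The leukocyte antigen Ptprc reached the floor on both loxtidine arrays and not on the carcinoid array (7.3, 13.8 and 13.2). Pecam1, Selp and Icam1 are not particular to endothelium, and the part of leukocytes in their values was not tested.

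Of the 5 platelet markers on the array, 0 were higher and 1 of 3 lower in the carcinoid than at 8 weeks (Tbxas1), 1 of 4 was higher in the carcinoid than at 16 weeks (Pf4, 2.23-fold) and 0 of 4 reached 2-fold at 16 against 8 weeks. Their medians were 0.02, -0.004 and -0.50, and their sums 96.2, 91.2 and 73.5 as deposited and 85.4, 85.6 and 90.5 after normalization. Of the smooth muscle and pericyte genes, more were higher than lower against 8 weeks. There 3 of 7 were higher in the carcinoid than at 8 weeks (Myl9, 3.47-fold, Cnn1 and Acta2, at least 2.61-fold and at least 2.6-fold) and 1 lower (Cspg4). The Acta2 probe set is of the kind shared within a gene family, and the part of other actins in its values was not tested. Neither Cnn1 nor Acta2 was brighter than every control without a target on any array. In this list 2 of 6 were higher at 16 weeks than at 8 weeks and 1 lower, and 0 of 5 reached 2-fold between carcinoid and 16 weeks. The whole-array shares were 14.6% higher and 14.0% lower for carcinoid against 8 weeks, and 13.9% and 13.0% for 16 against 8 weeks. Cnn1 and Acta2 were under the floor at 8 weeks alone, so both had to be higher against 8 weeks. Cspg4 reached it at 8 weeks alone, so it had to be lower. Among the genes called, Myl9 alone was measured on both arrays of each pair. The medians of this list were 0.64, 0.59 and 0.30. Its sums as deposited were 227.9 for the carcinoid, 163.6 for 16 weeks and 74.2 for 8 weeks. After normalization they were 198.9, 153.5 and 90.1 in that order. Of the glial markers S100b and Sox10, neither reached 2-fold.

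The labelled cell type was checked as well. Histidine decarboxylase, Hdc, the defining enzyme of the ECL cell, was below the floor on all arrays (3.4, 5.2 and 3.7). The gastrin receptor Cckbr read 40.2 on the carcinoid array, 60.5 at 16 weeks and 54.7 at 8 weeks. ECL and neuroendocrine markers had 4 of 8 lower and 0 higher for carcinoid against 8 weeks (Chgb, Cckbr, Pcsk2 and Syp, median -0.84). The whole-array shares were 14.0% lower and 14.6% higher. The same markers had 1 of 8 lower (Scg5) and 0 higher for carcinoid against 16 weeks (median -0.69). For 16 against 8 weeks 1 of 9 was lower (Pcsk2) and 0 higher (median -0.08). Pcsk2 reached the floor at 8 weeks alone, so it had to be lower on the other arrays. Scg5 was below the floor in the carcinoid, so it had to be lower there than at 16 weeks. Of 10 gastric epithelial genes, 9 were brighter than every control without a target in the carcinoid, 8 at 16 weeks and 6 at 8 weeks. The acid pump subunit Atp4a read 1218.1, 1565.7 and 554.7, and the keratin Krt19 read 54.6, 16.7 and 1.5. In that list 3 of 10 were higher (Muc5ac, Krt8 and Krt19) and 1 lower (Atp4b) for carcinoid against 8 weeks (median 0.33). For carcinoid against 16 weeks 2 were higher (Tff2 and Krt19) and 0 lower (median 0.23), and for 16 against 8 weeks 2 were higher (Muc5ac and Krt8) and 1 lower (Tff2; median 0.27).

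The lists depended on scaling in part. As deposited, the median log2 ratio of all non-control probe sets was 0.45 for carcinoid against 8 weeks, 0.06 for carcinoid against 16 weeks and 0.42 for 16 against 8 weeks, and the list values above are relative to these shifts. For carcinoid against 8 weeks, 1443 probe sets of the array were then at least 2-fold higher and 337 lower (822 and 784 after normalization), and for 16 against 8 weeks 1193 were higher and 348 lower (775 and 724). The medians of the NF-kappaB and leukocyte lists against 8 weeks stayed below 0 as deposited, at -0.71 and -0.62 for the carcinoid and -0.86 and -0.27 for 16 weeks. The leukocyte count lower than at 8 weeks was 2 for the carcinoid and 1 for 16 weeks as deposited. For the 11 further endothelial markers the count lower than at 8 weeks was 0 in both comparisons as deposited, and the ECL count lower in the carcinoid was 1. Of the 10 gastric epithelial genes, 7 were higher and 0 lower in the carcinoid than at 8 weeks as deposited (median 1.17), and 4 higher and 0 lower with arrays scaled to the same median (0.72). Medians turned positive as deposited for the nitric oxide list in all 3 comparisons (0.29, 0.19 and 0.16), for the selectin and integrin list against 8 weeks (0.42 in the carcinoid and 0.20 at 16 weeks), and at 16 against 8 weeks for the further endothelial markers (0.01) and the ECL list (0.36). With arrays scaled to the same median, the sign turned for the nitric oxide list alone, between carcinoid and 16 weeks (0.11). The smooth muscle and endothelin medians were above 0 under all 3 scalings. After normalization every endothelin gene compared with 8 weeks had to be higher, so the sign of those medians was fixed. Most smooth muscle genes compared with 8 weeks were bounds too, with a direction fixed by the array that reached the floor.

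RNA quality differed with the groups too. The ratio of 3' to 5' signal of the GAPDH control was 2.31 on the carcinoid array, 1.43 at 16 weeks and 8.95 at 8 weeks, and that of beta-actin was 11.7, 6.71 and 16.1. The 8-week array thus had the weakest 5' signal, and it held the highest normalized value of 11 of the 17 endothelial probe sets (8 as deposited). The part of this in the endothelial differences was not tested.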

How the data were processed

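RNA of 3 Mastomys samples was hybridised to Affymetrix rat arrays, 1 array per group, with groups taken from the descriptions of the samples. Each probe set has a single linear intensity per array in the deposited table. The authors' algorithm, background correction and scaling are not given in the sources used here. Depth does not apply to arrays, and their number limits the precision.

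The 8799 probe sets, 59 of them controls, were quantile normalized. Values under the floor of 12.4 (the pooled median of non-control probe sets) were raised to it before log2. A probe set entered a comparison where at least 1 array of the pair reached the floor. Symbols came from the platform annotation provided: 7006 probe sets had 1 symbol, 308 several and 1426 none. Every endothelial probe set is given. Genes of the 12 lists took their brightest probe set by the mean over the deposited arrays. Up to 5 genes per list were to be named, those with the highest mean intensity, together with the genes behind counts of 5 or fewer. Some are not printed, and Ptprc, Hdc, Sele, S100b and Sox10 were named besides as defining markers. The endothelial genes and the lists were chosen with earlier results of these data known. No significance test was possible with 1 array per group. The spread between probe sets of a gene used the brightest pair per gene, some of them made from the same sequence. Alternatives were the deposited values, median scaling, other floors, log2 of value plus floor, and 1 value per gene. The steps were tested on simulated data. The folds planted there were in probe sets clear of the floor, so recovery of folds in dim probe sets was not tested. Python 3.11.15, numpy 2.4.6 and pandas 2.3.3 were used. No sequences or genome coordinates were used.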

Additional observations from a re-analysis of the deposited data

How the results depend on the processing

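The medians of the endothelial probe sets were below 0 in all 3 comparisons as deposited, with arrays scaled to the same median, with the floor at 4.2, with log2 of value plus floor, with 1 value per gene and without Nos3. No probe set at least 2-fold apart changed sign as deposited or with median scaling. With the floor at 4.2 or log2 of value plus floor none could change sign, since both keep the order of the normalized values. With higher floors few probe sets were left (6, 1 and 7 at 30.0, and 1, 1 and 2 at the brightest control without a target, for carcinoid against 8 weeks, carcinoid against 16 weeks and 16 against 8 weeks), so their medians show no direction. For the carcinoid against 8 weeks, the count at least 2-fold lower (5) became 3 as deposited and with log2 of value plus floor, 8 with the floor at the 25th percentile (4.2), 1 with it at the 75th percentile (30.0) and 0 with it at the brightest control without a target. The count higher (0) became 1 as deposited, with the lower floor and with log2 of value plus floor. For the carcinoid against 16 weeks, the counts lower and higher (2 and 1) became 4 and 3 with the floor at 4.2, and 0 and 0 with it at 30.0 or at that control. The count lower became 1 with the median over the probe sets of a gene and 1 without Nos3. For 16 against 8 weeks, the counts lower and higher (4 and 1) became 7 and 3 with the floor at 4.2, 1 and 0 with it at 30.0, and 0 and 0 with it at that control. The count higher became 0 with the median per gene and 0 without Nos3. Raising the floor shortens every bound, and at the brightest control (47.97) no count above 0 was possible, since the highest endothelial value allowed 1.25-fold. The floor at the brightest control and the removal of Nos3 were chosen after seeing the data. Low signal limits all of these values: 2 of 51 stood above every control without a target, and a bound taken from a floor within the range of those controls is uncertain in size.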
